A study of Mus musculus with 12 samples.

Results

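Testes of F3 mouse embryos with an ancestrally exposed male line were compared with testes of F3 control embryos, in 6 of the 12 RNA-seq libraries of the study. The libraries were chosen by their labels alone, as the 3 libraries named F3 testis treatment and the 3 named F3 testis control. Thiacloprid (*thia*) is a neonicotinoid, an insecticide that acts on nicotinic acetylcholine receptors. In the *thia* line, pregnant outbred Swiss (RjOrl) females were gavaged with 6 mg/kg/day of *thia* in olive oil from E6.5 to E15.5, and in the control line with olive oil alone (dose 0). Their F1 sons were mated with unrelated untreated females, the F2 sons likewise, and F3 testes were dissected at E15.5, so that no F3 embryo of either group was itself dosed. Each library held RNA from the pooled testes of 3 embryos of this outbred stock. Neither the litters behind a pool nor the breeding round it came from is given in the labels. The p-values below set the difference between groups against the spread between pools. Whether pools of a group share litters or ancestors is not known, so that spread may understate the variation between lines. The 6 libraries held 35216128 to 68996146 counts assigned to genes, which sets how finely low levels can be read.

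At this stage the mouse testis is built of cords, in which Sertoli cells surround germ cells, and of an interstitium with fetal Leydig cells, steroid progenitors and blood vessels. Sertoli cells secrete anti-Müllerian hormone and the desert hedgehog ligand, fetal Leydig cells make the androgen precursor and insulin-like 3, and male germ cells are leaving the cell cycle and silencing pluripotency genes. The RNA of a whole testis mixes all of these, and in such bulk samples fewer cells of a type and less RNA per cell cannot be told apart. Levels are given as CPM, counts scaled by library size and TMM, for replicates 1, 2 and 3 in that order. Log2 fold changes compare *thia* with control pools, and the value after ± is the standard error of the fit.

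The defining genes of the tissue were present in every pool. *Amh* (anti-Müllerian hormone) was at 159.97 to 479.98 CPM over the 6 pools, *Insl3* (insulin-like 3) at 51.8 to 205 CPM and *Ddx4*, a germ cell RNA helicase, at 52.8 to 127 CPM. The Y-linked gene *Eif2s3y* was at 48.02 to 65.9 CPM, *Xist*, the transcript of the inactive X, at 0.352 to 1.42 CPM and *Foxl2*, a transcription factor of granulosa cells, at 0.527 to 5.02 CPM.

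*Thia* replicate 2 stood apart from the other F3 pools. The chi-square statistic per degree of freedom between counts of 2 libraries was 90.7 and 101 for its pairs with *thia* replicates 1 and 3, 36.2 between those, and 17.3 to 26.5 between control pools. The statistic was taken on raw counts and grows with depth, and *thia* replicate 3 was the deepest library (68996146 counts). Its pairs are therefore not on the scale of the control pairs. In 260 genes the log2 CPM of *thia* replicate 2 was over 1 above the highest of the other 5 pools and in 93 over 1 below the lowest. The other pools had 3 to 24 and 16 to 50 such genes. In 221 of the 260 genes (85.0%) control replicate 3 was the next highest pool, so both groups held a pool with raised levels of these genes. In 51 of the 93 genes (54.8%) *thia* replicate 3 was the next lowest.

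**Figure D1:**
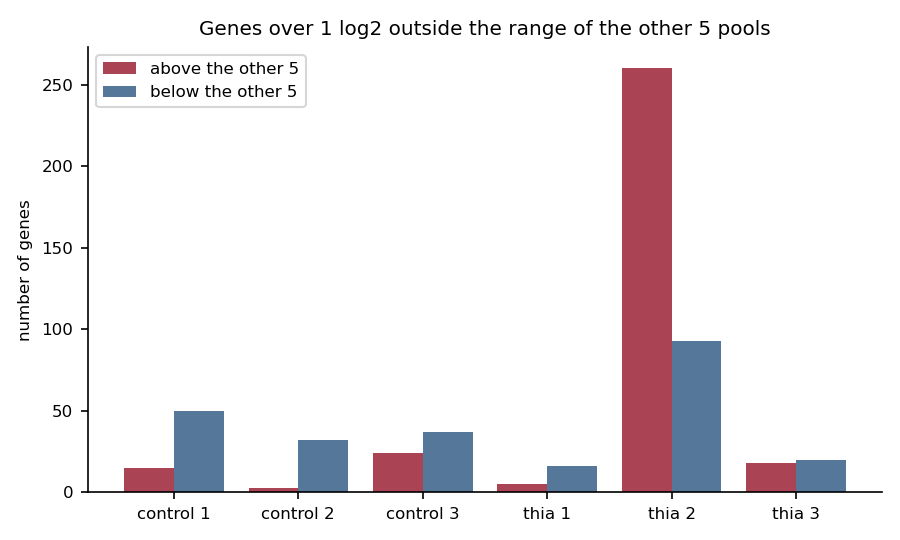
Number of genes, of 18539 tested, whose log2 CPM in a pool lies over 1 above (red) or below (blue) the range of the other 5 F3 pools, with 1 pair of bars for each pool on a linear axis from 0. *Thia* replicate 2 has 260 above and 93 below, and no other pool has over 50 of either.

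Many modest differences, in both directions, separated the 2 groups, and none passed the main test. In the quasi-likelihood test of edgeR, 0 of the 18539 tested genes reached an adjusted p under 0.1 (0.00%), and the smallest adjusted p was 0.101. An unadjusted p under 0.05 was reached by 3906. Higher in *thia* testis were 2044 of these (11.0% of the genes tested) and lower were 1862 (10.0%). The Wald test of DESeq2 called 1395 genes higher (9.17%) and 867 lower (5.70%) at an adjusted p under 0.1. The *thia* pools all lay above the control pools in 2440 genes (13.2%) and below them in 2651 (14.3%). Which pools entered mattered: without *thia* replicate 2, edgeR called 802 genes higher (4.23%) and 492 lower (2.59%). When control replicate 3 was left out as well, 122 were called higher (0.649%) and 85 lower (0.452%). For 1 gene alone, 3 pools in each group allow an exact two-sided permutation p of 0.1 at the smallest.

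The genes with the smallest p-values differed by a modest amount and varied little within each group, as a choice by p-value favours. *Lsm3*, a subunit of the ring that binds U6 small nuclear RNA, was at 93.2, 86.3 and 89.5 CPM in control and 60.2, 61.4 and 63.5 CPM in *thia* pools (log2 fold change -0.54 ± 0.07, edgeR adjusted p = 0.101). *Herc2*, a giant ubiquitin ligase, was at 42.5, 45.3 and 47.3 CPM in control and 63.2, 64.3 and 64.8 CPM in *thia* pools (log2 fold change 0.51 ± 0.07, edgeR adjusted p = 0.101). *Lrp3*, a receptor of the lipoprotein receptor family, was at 20.04, 23.8 and 21.5 CPM in control and 33.7, 34.3 and 33.3 CPM in *thia* pools (log2 fold change 0.63 ± 0.09, edgeR adjusted p = 0.101). In all of them the pools of a group lay within a few CPM of each other, *thia* replicate 2 included. The other 5 genes by this measure were all lower in *thia* testis. They were *Ppp1r11*, an inhibitor of protein phosphatase 1 (-0.52), *Gcsh* of the glycine cleavage system (-0.49), the exosome subunit *Exosc9* (-0.52), *Bloc1s2*, a subunit of a complex for lysosome-related organelles (-0.53), and the G protein subunit *Gng11* (-0.48), with log2 fold changes in brackets and edgeR adjusted p-values up to 0.101. DESeq2 called all 8 genes, and so did edgeR without *thia* replicate 2.

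Genes with a mean of at least 2 CPM, an unadjusted edgeR p under 0.05 and groups that did not overlap were ranked by their log2 fold change, so that the separation of the groups was a condition of the choice. High in this ranking, beside histocompatibility genes described below, were single genes, most of them at low levels. *Fndc1*, which encodes a protein with fibronectin domains (chromosome 17 from 7738569 to 7827302 of mm10), was at 8.77, 13.3 and 17.8 CPM in control and 32.1, 31.9 and 72.98 CPM in *thia* pools (log2 fold change 1.78 ± 0.39, edgeR adjusted p = 0.105). *Olfml2a*, for an olfactomedin-like secreted protein (chromosome 2 from 38931978 to 38963753), was at 1.71, 3.94 and 2.95 CPM in control and 8.299, 5.53 and 8.66 CPM in *thia* pools (log2 fold change 1.38 ± 0.32, edgeR adjusted p = 0.107). *Lrrc24*, for a leucine-rich repeat protein (chromosome 15 from 76715276 to 76722173), was at 2.03, 2.86 and 3.18 CPM in control and 5.38, 8.74 and 7.14 CPM in *thia* pools (log2 fold change 1.39 ± 0.25, edgeR adjusted p = 0.105). In *Fndc1* the third *thia* pool was far above the other two. The X-linked transcript *A730046J19Rik* was higher as well (2.04, adjusted p = 0.105, edgeR), as were *Aox3*, an aldehyde oxidase (1.48, adjusted p = 0.1803), and the surface protein *Ly6c2* (1.52, adjusted p = 0.143). *Aox3* rested mainly on *thia* replicate 3 (5.02 CPM) and *Ly6c2* on replicate 2 (6.23 CPM), without which its log2 fold change was 0.84.

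Among the largest differences downwards in the same ranking, *Zfp33b*, a zinc finger gene, was at 4.47, 6.002 and 4.71 CPM in control and 0.741, 2.21 and 0.5799 CPM in *thia* pools (log2 fold change -2.14 ± 0.49, edgeR adjusted p = 0.105). *AA465934*, a transcript of unknown function (chromosome 11 from 83291699 to 83294632), was at 8.36, 20.04 and 2.29 CPM in control and 1.12, 1.38 and 1.61 CPM in *thia* pools (log2 fold change -2.89 ± 0.70, edgeR adjusted p = 0.1097), with control pools far apart from each other. *Myog*, the transcription factor myogenin of skeletal muscle, was at 4.62, 2.13 and 8.47 CPM in control and 1.55, 1.65 and 1.32 CPM in *thia* pools (log2 fold change -1.76 ± 0.46, edgeR adjusted p = 0.12). *Gdpd3*, a glycerophosphodiester phosphodiesterase, and the transcript *Gm15389* had log2 fold changes of -1.46 and -1.40 (adjusted p = 0.146 and 0.147, edgeR). DESeq2 called all 5 lower.

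**Figure D2:**
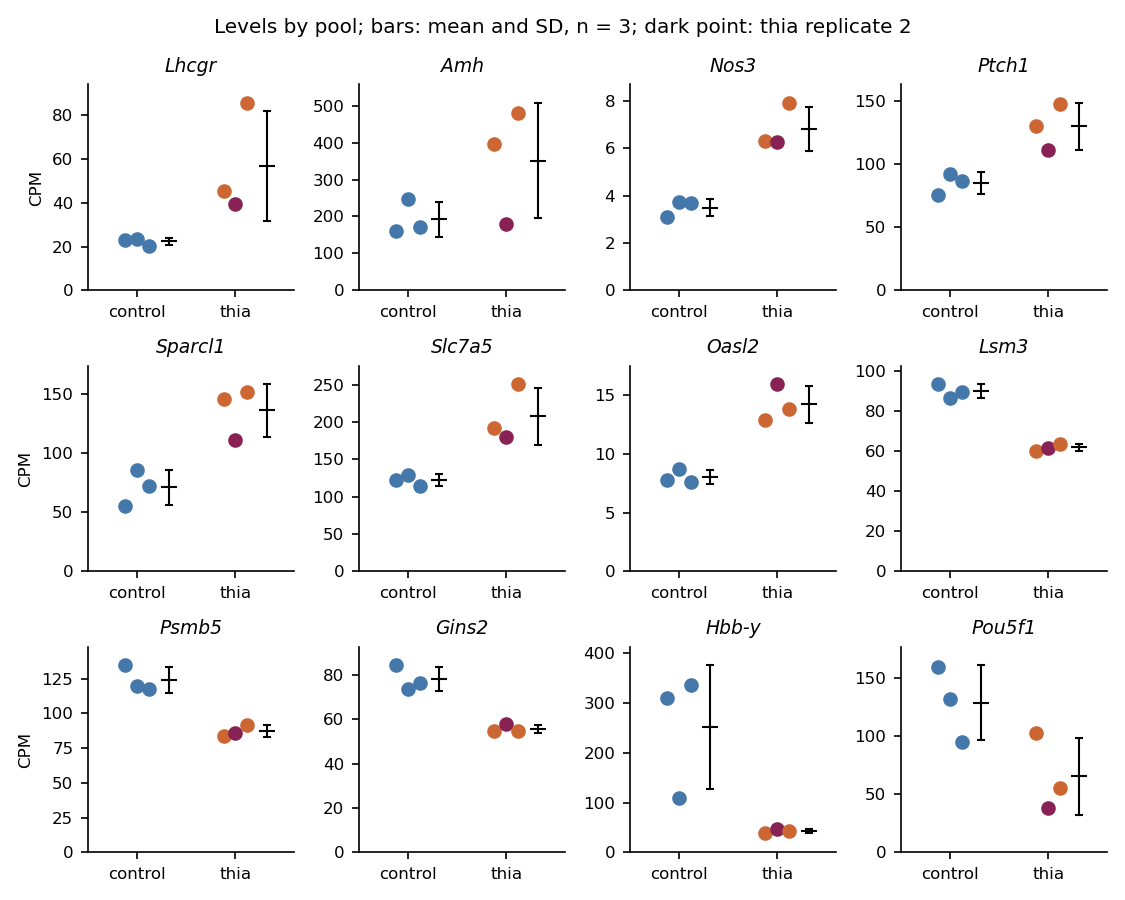
Level of 12 genes in each F3 pool, in CPM on linear axes that start at 0, with control pools in blue, *thia* replicates 1 and 3 in orange and *thia* replicate 2 in dark red, and the mean and SD (n = 3) as a bar beside each group. The groups do not overlap in *Lhcgr*, *Nos3*, *Ptch1*, *Sparcl1*, *Slc7a5*, *Oasl2*, *Lsm3*, *Psmb5*, *Gins2* and *Hbb-y*, while *thia* replicate 2 lies at the control level in *Amh* and is the lowest pool in *Pou5f1*.

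The embryonic globins were lower in *thia* testis. This list of 3 genes was written after their values were seen, so its counts are a description. Embryonic globins are made by the primitive red cells of the yolk sac, which adult-type red cells from the fetal liver replace by this stage. *Hbb-y* was at 309, 109 and 336 CPM in control and 39.3, 47.5 and 42.97 CPM in *thia* pools (log2 fold change -2.54 ± 0.39, edgeR adjusted p = 0.101). *Hbb-bh1* was at 6.56, 4.14 and 7.74 CPM in control and 3.13, 2.64 and 1.598 CPM in *thia* pools (log2 fold change -1.33 ± 0.32, edgeR adjusted p = 0.111). All 3 *thia* pools lay below all control pools in both genes and in the third member, *Hba-x*. DESeq2 called all 3 lower, and so did edgeR without *thia* replicate 2. Of the 4 adult globins, 0 had an unadjusted p under 0.05 with edgeR and DESeq2 called 0. Their summed level was 60546, 56123 and 60393 in control and 41047, 75068 and 45742 CPM in *thia* pools, with *thia* replicate 2 the highest pool and *thia* replicates 1 and 3 the lowest. Their log2 fold changes lay between -0.18 (*Hba-a2*) and 0.08 (*Hbb-bt*), and edgeR adjusted p-values between 0.348 (*Hba-a2*) and 0.8204 (*Hbb-bs*). With *thia* replicate 2 left out, edgeR called *Hba-a1* lower (-0.62, edgeR adjusted p = 0.0631 without that pool). Among the other erythroid genes 0 of 20 had an unadjusted p under 0.05 with edgeR and DESeq2 called 0. *Hba-a1* and *Hba-a2* are near-identical copies, and how their shared reads were counted is not known.

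Fetal Leydig cell genes were higher in *thia* testis. Of the 25 listed and tested, 11 were higher at an unadjusted p under 0.05 and 1 was lower with edgeR, where 11.0% and 10.0% of all genes were. DESeq2 called 10 of 25 higher and 1 lower, beside 9.17% and 5.70% of all genes. Their median log2 fold change was 0.50 against 0.00 over all genes tested. Their summed level was 4217, 5882 and 5673 in control and 8099.8, 7016 and 10663 CPM in *thia* pools, so that every *thia* pool was above every control pool. The study names 5 of the 25 (*Cyp17a1*, *Scarb1*, *Star*, *Prlr* and *Pcsk6*) in its account of these libraries. All 25 were read in these same libraries, with earlier results known, so none is independent support. *Lhcgr*, the receptor of luteinizing hormone, was at 23.1, 23.5 and 20.5 CPM in control and 45.5, 39.3 and 85.5 CPM in *thia* pools (log2 fold change 1.35 ± 0.28, edgeR adjusted p = 0.105). *Thbs2*, a matrix thrombospondin made by fetal Leydig cells, was at 41.2, 42.01 and 49.97 CPM in control and 66.5, 73.7 and 83.8 CPM in *thia* pools (log2 fold change 0.75 ± 0.11, edgeR adjusted p = 0.101). *Ren1*, the protease renin, was at 148, 197 and 176 CPM in control and 317, 233 and 241 CPM in *thia* pools (log2 fold change 0.60 ± 0.15, edgeR adjusted p = 0.114). In each of these 3 genes the groups did not overlap. *Gramd1b*, a sterol carrier, was at 39.1, 57.5 and 57.7 CPM against 84.6, 58.1 and 119.9 CPM in the same order, with *thia* replicate 2 just above the highest control pool.

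Not all Leydig genes followed. The lower member was *Hsd3b6*, a 3-beta-hydroxysteroid dehydrogenase, at 15.2, 7.38 and 15.3 CPM in control and 4.42, 6.12 and 4.19 CPM in *thia* pools (log2 fold change -1.37 ± 0.30, edgeR adjusted p = 0.105), where its paralog *Hsd3b1* was at 419, 591 and 577 CPM against 667, 530.1 and 834 CPM (log2 fold change 0.36 ± 0.19, edgeR adjusted p = 0.336). The 2 paralogs are similar in sequence, and reads could be split between them. *Cyp11a1*, the enzyme that starts steroid synthesis, was at 541, 764 and 774 CPM in control and 1045, 689 and 1197 CPM in *thia* pools (log2 fold change 0.50 ± 0.22, edgeR adjusted p = 0.255). *Insl3* was at 51.8, 84.5 and 80.2 CPM in control and 98.5, 68.7 and 205 CPM in *thia* pools (log2 fold change 0.78 ± 0.39, edgeR adjusted p = 0.297). In *Cyp11a1*, *Insl3* and *Hsd3b1*, *thia* replicate 2 lay within the control range and *thia* replicates 1 and 3 above it. When *thia* replicate 2 was left out, edgeR called *Cyp11a1* higher (0.69, edgeR adjusted p = 0.0811 without that pool), but not *Insl3* (adjusted p = 0.112) or *Hsd3b1* (adjusted p = 0.141). Adrenal cortex genes, which a neighbouring organ would bring in, had 3 of 12 members at an unadjusted p under 0.05, all higher, beside 11.0% of all genes. Among them *Cyp21a1*, the adrenal 21-hydroxylase, was at 10.7, 19.3 and 14.97 CPM against 15.98, 27.98 and 50.5 CPM (log2 fold change 1.07 ± 0.41, edgeR adjusted p = 0.194), highest in the pool with the highest *Lhcgr* and *Insl3*. The part of adrenal tissue in the Leydig result was not tested.

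Sertoli cell genes were high, as a sum, in *thia* replicates 1 and 3 alone. Their summed level over 25 genes was 2143, 2634 and 2026 in control and 3182, 1964 and 3213 CPM in *thia* pools, the lowest in *thia* replicate 2. Of the 25 genes, 4 were higher at an unadjusted p under 0.05 and 0 were lower, beside 11.0% and 10.0% of all genes. DESeq2 called 3 higher, beside 9.17% of all genes, so these counts are near the shares over all genes. *Thia* replicates 1 and 3 lay above all control pools in 15 of the 25 genes, beside 20.1% of all genes. *Thia* replicate 2 did so too in 1 of these, where all *thia* pools lay above the control pools in 13.2% of all genes. *Amh* was at 159.97, 247 and 170.4 CPM in control and 395, 179 and 479.98 CPM in *thia* pools (log2 fold change 0.87 ± 0.35, edgeR adjusted p = 0.211). *Rhox8*, an X-linked homeobox gene of Sertoli cells, was at 3.43, 6.78 and 4.13 CPM in control and 10.9, 5.69 and 11.004 CPM in *thia* pools (log2 fold change 0.94 ± 0.34, edgeR adjusted p = 0.176). *Clu*, the secreted chaperone clusterin, was at 296, 465 and 302 CPM in control and 647, 321 and 691 CPM in *thia* pools (log2 fold change 0.64 ± 0.30, edgeR adjusted p = 0.276). The pattern of the *thia* pools, 2 high and 1 at the control level, was the same in all 3. Without *thia* replicate 2, edgeR called 10 of the 25 higher and 0 lower, among them *Amh* (1.19, edgeR adjusted p = 0.0626 without that pool), *Sox9*, the transcription factor that sets Sertoli fate (0.77, edgeR adjusted p = 0.0804 without that pool), and *Fshr*, the receptor of follicle-stimulating hormone (0.92, edgeR adjusted p = 0.0957 without that pool). Of all genes, edgeR called 4.23% higher without *thia* replicate 2. Without control replicate 3 as well, 1 of the 25 was called higher, beside 0.649% of all genes. *Nr5a1*, a nuclear receptor of Sertoli and Leydig cells, was the 1 member whose groups did not overlap upwards, at 119.8, 157 and 153 CPM in control and 204, 159 and 251 CPM in *thia* pools (log2 fold change 0.52 ± 0.18, edgeR adjusted p = 0.167).

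Endothelial genes were higher in all *thia* pools. Of 26 genes, 17 were higher and 1 was lower at an unadjusted p under 0.05, beside 11.0% and 10.0% of all genes. The groups did not overlap upwards in 16, beside 13.2% of all genes, and DESeq2 called 15 higher, beside 9.17%. The median log2 fold change of the list was 0.53. Their summed level was 473, 522 and 504 in control and 641, 631 and 722 CPM in *thia* pools. *Nos3*, the endothelial nitric oxide synthase, was at 3.08, 3.72 and 3.68 CPM in control and 6.29, 6.26 and 7.89 CPM in *thia* pools (log2 fold change 0.96 ± 0.17, edgeR adjusted p = 0.105). *Tie1*, a receptor kinase of vessels, was at 12.3, 13.01 and 14.7 CPM in control and 19.7, 18.7 and 21.96 CPM in *thia* pools (log2 fold change 0.59 ± 0.11, edgeR adjusted p = 0.105). *Clec14a*, a lectin of vessel walls, was at 13.3, 14.5 and 12.4 CPM in control and 18.7, 20.1 and 18.2 CPM in *thia* pools (log2 fold change 0.50 ± 0.10, edgeR adjusted p = 0.105). The 3 *thia* pools were close to each other in these genes. The study names 4 of the 26 (*Cdh5*, *Eng*, *Flt1* and *Flt4*) from these libraries. All 26 were read in these same libraries, with earlier results known, so none is independent support. *Thbd* (thrombomodulin) and *Cd93*, surface proteins of endothelium from the coagulation list, were at 114, 116 and 112 CPM against 186, 146 and 188 CPM (log2 fold change 0.60 ± 0.11, edgeR adjusted p = 0.105) and 12.7, 14.97 and 16.4 CPM against 30.7, 21.4 and 30.7 CPM (log2 fold change 0.91 ± 0.17, edgeR adjusted p = 0.105), and in both *thia* replicate 2 was the lowest *thia* pool. The lower member of the endothelial list was *Egfl7*, a secreted endothelial factor, at 41.3, 40.6 and 36.05 CPM in control and 31.1, 33.02 and 36.02 CPM in *thia* pools (log2 fold change -0.24 ± 0.09, edgeR adjusted p = 0.202). Leaving out *thia* replicate 2, edgeR called 12 of the 26 higher and 0 lower, and without control replicate 3 as well 6 and 0. Of all genes it called 4.23% and 0.649% higher in these 2 fits.

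Other interstitial cells had smaller differences of the same sign. For comparison, 11.0% of all genes were higher and 10.0% lower at an unadjusted p under 0.05, and DESeq2 called 9.17% higher. Steroid progenitor and fibroblast genes had 10 of 21 members higher at an unadjusted p under 0.05 and 0 lower (median 0.26, 7 called higher by DESeq2). *Pdgfra*, the platelet-derived growth factor receptor of the interstitium, was at 289, 339.7 and 306 CPM in control and 401, 407 and 478 CPM in *thia* pools (log2 fold change 0.46 ± 0.10, edgeR adjusted p = 0.105). Peritubular myoid and smooth muscle genes had 7 of 20 higher and 0 lower (median 0.24, 7 called higher by DESeq2). *Pdlim3*, an actinin-binding protein, was at 158, 188 and 201 CPM in control and 251, 289.9 and 263 CPM in *thia* pools (log2 fold change 0.56 ± 0.11, edgeR adjusted p = 0.105). *Mylk*, the myosin light chain kinase, was at 179, 204 and 207 CPM in control and 238, 264 and 263 CPM in *thia* pools (log2 fold change 0.38 ± 0.09, edgeR adjusted p = 0.107), whereas *Acta2*, smooth muscle actin, had a log2 fold change of -0.12 (adjusted p = 0.505, edgeR). Macrophage genes had 0 of 22 members at an unadjusted p under 0.05 and DESeq2 called 0.

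Some genes of the surface layer and of the adjoining mesonephros were lower. *Aldh1a2*, the enzyme that makes retinoic acid and a gene of the coelomic surface, was at 232, 223 and 197 CPM in control and 141, 174 and 155 CPM in *thia* pools (log2 fold change -0.47 ± 0.10, edgeR adjusted p = 0.105). *Krt7*, a keratin of surface epithelium, was at 108, 91.4 and 90.9 CPM in control and 60.1, 86.5 and 71.5 CPM in *thia* pools (log2 fold change -0.41 ± 0.14, edgeR adjusted p = 0.165). Of 16 genes of the coelomic epithelium 3 were lower and 1 higher at an unadjusted p under 0.05, beside 10.0% and 11.0% of all genes, and DESeq2 called 2 lower. The higher one was *C3*, the third complement component, whose level of 86.6 CPM in *thia* replicate 2 stood against 19.5 to 38.8 CPM elsewhere, and whose log2 fold change was 1.06 with and 0.43 without that pool. Of 28 mesonephric genes 6 were lower and 0 higher, and DESeq2 called 6 lower, beside 5.70% of all genes. *Cdh16*, a cadherin of kidney tubules, was at 2.82, 0.979 and 2.62 CPM in control and 0.889, 0.648 and 0.849 CPM in *thia* pools (log2 fold change -1.41 ± 0.40, edgeR adjusted p = 0.132). Of 17 genes of chromaffin and sympathetic cells 1 was higher and 2 were lower, a share near that of all genes lower. Among them *Hand2*, a transcription factor of sympathetic neurons and mesenchyme, was at 36.1, 35.7 and 32.5 CPM in control and 19.4, 28.4 and 17.2 CPM in *thia* pools (log2 fold change -0.68 ± 0.18, edgeR adjusted p = 0.122).

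Most germ cell genes had a lower mean level in *thia* testis. The summed level of 30 genes was 2292, 1986 and 1444 in control and 2052, 1008 and 1339 CPM in *thia* pools, so that *thia* replicate 1 lay within the control range and *thia* replicate 2 was the lowest pool. Of the 30 genes, 28 had a negative log2 fold change, and 6 were lower at an unadjusted p under 0.05 and 0 higher, beside 10.0% and 11.0% of all genes. The groups did not overlap downwards in 3, a smaller share than the 14.3% of all genes. DESeq2 called 3 lower, beside 5.70% of all genes, *Nanos3*, *Dppa5a* and *Tex101*. *Pou5f1*, the pluripotency factor Oct4 that male germ cells switch off, was at 159.6, 132 and 95.2 CPM in control and 102, 38.4 and 55.4 CPM in *thia* pools (log2 fold change -0.98 ± 0.35, edgeR adjusted p = 0.1803). *Dppa5a*, an RNA-binding protein of pluripotent cells, was at 16.6, 14.6 and 10.4 CPM in control and 11.1, 6.26 and 7.65 CPM in *thia* pools (log2 fold change -0.73 ± 0.25, edgeR adjusted p = 0.168). *Tex101*, a surface protein of germ cells, was at 66.5, 55.4 and 47.8 CPM in control and 45.5, 36.2 and 43.2 CPM in *thia* pools (log2 fold change -0.44 ± 0.14, edgeR adjusted p = 0.1499). In the first 2 the groups overlapped, and in all 3 control replicate 3 was the lowest control pool and *thia* replicate 2 the lowest *thia* pool. Other germ cell genes differed less between groups than between pools. *Dazl*, an RNA-binding protein required for germ cell development, had a log2 fold change of -0.06 ± 0.15 (± standard error) and *Ddx4* of -0.48 ± 0.28. The median of the list without *thia* replicate 2 was -0.22 in place of -0.34, and edgeR called 0 of the 30, where it called 2.59% of all genes lower. DESeq2 without that pool called 0 of them higher and 1 lower, beside 11.2% and 7.40% of all genes. Without control replicate 3 as well, the median of the list was -0.42. In that fit edgeR called 0 of the 30 higher and 1 lower, beside 0.649% and 0.452% of all genes.

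**Figure D3:**
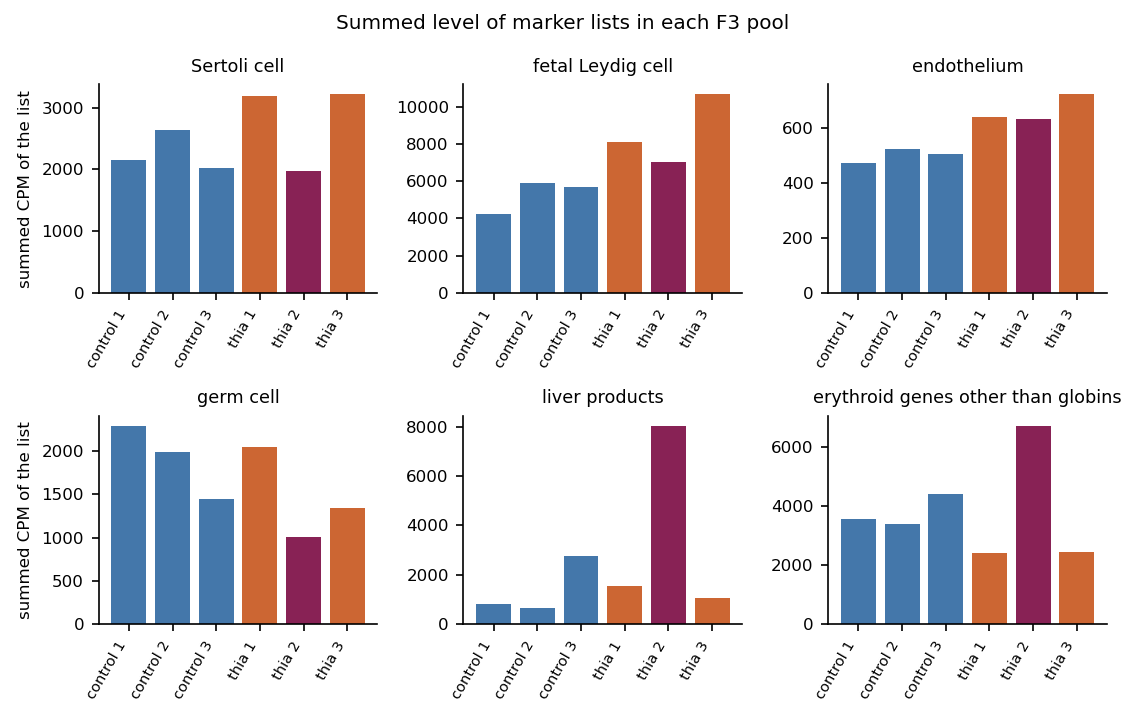
Summed level, in CPM on linear axes that start at 0, of 6 marker lists in each F3 pool (control blue, *thia* orange, *thia* replicate 2 dark red; 1 bar is 1 pool). Leydig and endothelial sums are higher in every *thia* pool than in every control pool, Sertoli sums only in *thia* replicates 1 and 3, germ cell genes are lowest in *thia* replicate 2, and liver products and erythroid genes are highest there.

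A second set of groups was lower, those of the machinery that every dividing cell uses. For comparison, 10.0% of all genes were lower at an unadjusted p under 0.05. The groups did not overlap downwards in 14.3% of all genes, and DESeq2 called 5.70% lower. Of 45 proteasome genes, 42 had a negative log2 fold change, 28 were lower at an unadjusted p under 0.05 and 0 were higher, the groups did not overlap downwards in 29, and DESeq2 called 16 lower. The median was -0.24 and the summed level 8750.1, 8097 and 8092 in control and 7053, 7004 and 6723 CPM in *thia* pools. *Psmb5*, the catalytic subunit with chymotrypsin-like activity, was at 135, 119.9 and 117 CPM in control and 83.8, 85.7 and 91.96 CPM in *thia* pools (log2 fold change -0.51 ± 0.08, edgeR adjusted p = 0.101). *Psmd13*, of the regulatory particle, was at 383, 333 and 319.6 CPM in control and 249, 233 and 226 CPM in *thia* pools (log2 fold change -0.55 ± 0.09, edgeR adjusted p = 0.105). *Psma6*, of the outer ring, was at 372, 346 and 359 CPM in control and 273, 279 and 271 CPM in *thia* pools (log2 fold change -0.39 ± 0.07, edgeR adjusted p = 0.105). In all 3 the *thia* pools lay close together and below every control pool. Without *thia* replicate 2 edgeR called 9 of the 45 genes lower, and without control replicate 3 as well 0. Of all genes it called 2.59% and 0.452% lower in these 2 fits.

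Genes for proteins of the spliceosome were lower too. Of 66 genes 32 were lower and 1 was higher at an unadjusted p under 0.05, DESeq2 called 18 lower, and the summed level was 8076, 7864 and 7955 in control and 6978, 7069.8 and 6818 CPM in *thia* pools. Without *thia* replicate 2 edgeR called 16 of the 66 lower, and without control replicate 3 as well 1, beside 2.59% and 0.452% of all genes. *Snrpd1*, a core Sm protein, was at 179, 173 and 172 CPM in control and 133, 119 and 129 CPM in *thia* pools (log2 fold change -0.46 ± 0.07, edgeR adjusted p = 0.101), and *Snrpe*, another, was at 154, 139.9 and 156 CPM against 104, 108 and 117 CPM (log2 fold change -0.45 ± 0.08, edgeR adjusted p = 0.105). Of 36 genes for mitochondrial protein import 18 were lower and 0 higher, and DESeq2 called 8 lower. *Tomm7*, of the outer membrane translocase, was at 125, 103 and 119.8 CPM in control and 79.1, 77.9 and 93.6 CPM in *thia* pools (log2 fold change -0.47 ± 0.11, edgeR adjusted p = 0.105). Of 33 RNA polymerase subunits 11 were lower and 1 higher, and DESeq2 called 6 lower and 1 higher, with *Polr3k* of RNA polymerase III at 76.1, 79.002 and 81.9 CPM in control and 57.1, 62.6 and 54.4 CPM in *thia* pools (log2 fold change -0.44 ± 0.08, edgeR adjusted p = 0.105). Of 40 aminoacyl-tRNA synthetases and their partners 10 were lower and 1 higher, with the scaffold *Aimp2* at 107, 89.5 and 91.8 CPM against 72.4, 70.2 and 62.8 CPM (log2 fold change -0.49 ± 0.10, edgeR adjusted p = 0.105). Small nucleolar RNA host genes had 4 of 22 lower and 0 higher. Over all genes 10.0% were lower at that threshold. DESeq2 called 3 of the 40 lower and 1 higher and 2 of the 22 lower, where it called 5.70% of all genes lower. *Gas5*, a host transcript, was at 131, 117 and 149.97 CPM in control and 92.8, 90.1 and 69.9 CPM in *thia* pools (log2 fold change -0.65 ± 0.14, edgeR adjusted p = 0.105).

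Genes of DNA replication and mitosis were lower too, least so in *thia* replicate 2. For comparison, 10.0% of all genes were lower at an unadjusted p under 0.05, and DESeq2 called 5.70% lower. Of 50 replication genes, 19 were lower and 0 higher at an unadjusted p under 0.05, DESeq2 called 12 lower, and the summed level was 4094, 3941 and 4135 in control and 3554, 3998 and 3221 CPM in *thia* pools, with *thia* replicate 2 within the control range. Without that pool edgeR called 12 of the 50 lower, and without control replicate 3 as well 0, beside 2.59% and 0.452% of all genes. *Gins2*, a subunit of the replicative helicase, was at 84.3, 73.7 and 76.1 CPM in control and 54.9, 57.6 and 54.5 CPM in *thia* pools (log2 fold change -0.49 ± 0.08, edgeR adjusted p = 0.101). *Gins4*, its partner, was at 114, 106 and 99.5 CPM against 80.3, 74.7 and 71.3 CPM (log2 fold change -0.50 ± 0.08, edgeR adjusted p = 0.104). *Tyms*, thymidylate synthase, was at 103, 97.4 and 105 CPM in control and 72.9, 81.7 and 73.9 CPM in *thia* pools (log2 fold change -0.42 ± 0.07, edgeR adjusted p = 0.105). Of 44 mitosis genes 11 were lower and 1 higher, with *Cks2*, a partner of cyclin-dependent kinases, at 73.9, 70.3 and 68.8 CPM in control and 54.2, 53.9 and 48.2 CPM in *thia* pools (log2 fold change -0.45 ± 0.08, edgeR adjusted p = 0.105). The summed level of the mitosis genes was 3134, 3311 and 3190 in control and 3028, 3180 and 2651 CPM in *thia* pools, with *thia* replicate 2 within the control range. *Thia* replicate 2 was the highest of all pools in 11 of the 50 replication genes and in 10 of the 44 mitosis genes. Both are near its share over all genes, 3688 of 18539.

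Gene length moved with these differences. Over 5 bins of nearly equal size of the 17547 genes with a known exon length, the median log2 fold change went from -0.12 in the bin of shortest genes to 0.12 in the longest. All 3 *thia* pools shared the slope, with medians of -0.16, -0.10 and -0.10 relative to the control mean in the shortest bin and 0.12, 0.09 and 0.13 in the longest. The control pools lay at 0.03, -0.05 and 0.01 in the shortest bin and at -0.05, 0.04 and 0.02 in the longest. In the shortest bin the groups did not overlap downwards in 20.2% of genes and upwards in 4.84%, and in the longest bin in 6.35% and 25.5%. The median exon length was 2820 bases in the proteasome list and 3162 bases in the spliceosome list, against 4024 bases over all genes tested. After the trend with length was removed, the medians were -0.22 for the proteasome, -0.18 for the spliceosome and -0.19 for DNA replication, against -0.02 over all genes.

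**Figure D4:**
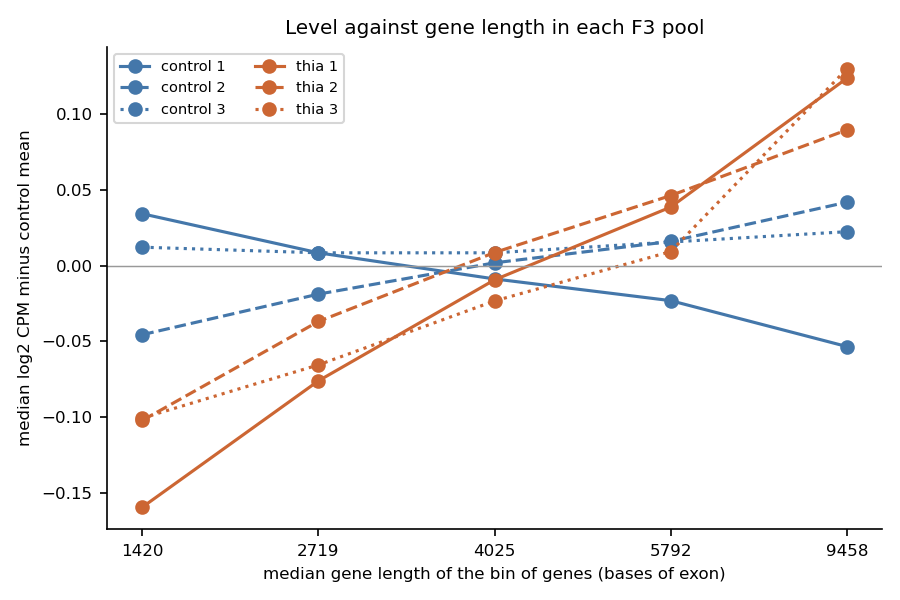
Median over the genes of each length bin of log2 CPM minus the mean of the 3 control pools, on a linear axis, for 5 bins in order of length, each labelled with its median exon length in bases; 1 line is 1 pool, control in blue and *thia* in orange. In the longest bin all 3 *thia* lines lie above the control lines, and in the shortest below them.

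Extracellular matrix genes were higher in 3 lists. For comparison, 11.0% of all genes were higher and 10.0% lower at an unadjusted p under 0.05. The groups did not overlap upwards in 13.2% of all genes, and DESeq2 called 9.17% higher. Of 63 matrix glycoproteins and proteoglycans 29 were higher and 1 was lower at an unadjusted p under 0.05, the groups did not overlap upwards in 26, and DESeq2 called 25 higher and 1 lower. Their summed level was 8352, 8867 and 9232 in control and 9968, 11267 and 11692 CPM in *thia* pools. *Sparcl1*, a matricellular protein of vessels and stroma, was at 55.2, 85.2 and 72.2 CPM in control and 145, 111 and 152 CPM in *thia* pools (log2 fold change 0.94 ± 0.18, edgeR adjusted p = 0.105). The lower member was *Spp1* (osteopontin), at 22.7, 20.4 and 21.4 CPM in control and 12.8, 14.6 and 14.5 CPM in *thia* pools (log2 fold change -0.62 ± 0.10, edgeR adjusted p = 0.101). Of 42 collagens 16 were higher and 0 lower, and DESeq2 called 15 higher. *Col25a1*, a membrane collagen, was at 25.2, 31.7 and 30.3 CPM in control and 46.05, 42.7 and 46.6 CPM in *thia* pools (log2 fold change 0.63 ± 0.10, edgeR adjusted p = 0.102), and *Col4a4*, of basement membranes, was at 11.4, 16.2 and 15.96 CPM against 22.4, 21.2 and 23.3 CPM (log2 fold change 0.62 ± 0.15, edgeR adjusted p = 0.109). The summed collagen level was 10646, 11249 and 13621 in control and 14181, 16413 and 14978 CPM in *thia* pools, with control replicate 3 the highest control pool.

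Enzymes that cut the matrix were higher along with it. Of 59 matrix proteases and inhibitors 28 were higher and 1 was lower, beside 11.0% and 10.0% of all genes. DESeq2 called 22 higher, beside 9.17%. *Adamts7*, a metalloprotease, was at 40.2, 53.1 and 41.3 CPM in control and 76.2, 70.9 and 95.99 CPM in *thia* pools (log2 fold change 0.85 ± 0.15, edgeR adjusted p = 0.105). *Mmp28* was at 6.48, 6.93 and 8.92 CPM against 12.2, 11.9 and 13.2 CPM (log2 fold change 0.74 ± 0.15, edgeR adjusted p = 0.105) and the membrane-bound *Mmp15* at 17.3, 21.4 and 18.4 CPM against 31.3, 26.4 and 41.9 CPM (log2 fold change 0.80 ± 0.18, edgeR adjusted p = 0.105). After removal of the length trend the medians of glycoproteins, collagens and proteases were 0.30, 0.24 and 0.22, in place of 0.37, 0.31 and 0.30. Several members, *Thbs2* among them, are also Leydig or stromal genes.

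Among the signalling pathways, the Hedgehog and Notch lists had the largest shares of higher members. For comparison, 11.0% of all genes were higher and 10.0% lower at an unadjusted p under 0.05, and DESeq2 called 9.17% higher. In the fetal testis, desert hedgehog from Sertoli cells acts on the interstitium, and Notch signalling restrains progenitors there. The ligand *Dhh* was at 52.8, 66.6 and 43.9 CPM in control and 81.6, 45.8 and 77.97 CPM in *thia* pools (log2 fold change 0.33 ± 0.24, edgeR adjusted p = 0.466), again with *thia* replicate 2 within the control range. Its receptor *Ptch1*, which is also a transcriptional target of the pathway, was at 75.4, 92.7 and 86.4 CPM in control and 131, 111 and 148 CPM in *thia* pools (log2 fold change 0.62 ± 0.12, edgeR adjusted p = 0.105). The target transcription factor *Gli1* was at 38.6, 57.1 and 53.97 CPM against 58.8, 64.4 and 69.2 CPM (log2 fold change 0.36 ± 0.15, edgeR adjusted p = 0.225), and the co-receptor *Cdon* at 138, 156 and 142 CPM against 177, 204 and 238 CPM (log2 fold change 0.51 ± 0.12, edgeR adjusted p = 0.105). Of 24 Hedgehog genes 10 were higher and 0 lower at an unadjusted p under 0.05, and DESeq2 called 7 higher. *Ptch1* and *Gli1* also belong to the steroid progenitor and fibroblast list above, so the counts of these lists are not separate results. The part of those cells in the Hedgehog result was not tested.

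Of 35 Notch genes 15 were higher and 0 lower, and DESeq2 called 10 higher. *Notch2* and *Hes1* are also in the steroid progenitor and fibroblast list and *Notch3* in the myoid list, and the part of those cells was not tested. The receptor *Notch1* was at 9.67, 11.8 and 12.9 CPM in control and 17.1, 18.9 and 27.3 CPM in *thia* pools (log2 fold change 0.88 ± 0.20, edgeR adjusted p = 0.105). The target genes *Hes1* and *Hey1* had log2 fold changes of -0.04 and -0.23 (edgeR adjusted p = 0.814 and 0.446). In the other pathways, members at an unadjusted p under 0.05 numbered 12 higher and 2 lower of 59 for Wnt and 14 and 0 of 61 for TGF-beta, activin and BMP. They numbered 5 and 0 of 33 for FGF and 9 and 0 of 36 for insulin and IGF, beside 11.0% and 10.0% of all genes. *Igfbp7*, a secreted binding protein of vessels, was at 64.3, 110.1 and 81.5 CPM in control and 148, 144 and 223 CPM in *thia* pools (log2 fold change 1.01 ± 0.24, edgeR adjusted p = 0.108), and *Fstl3*, which binds activin, was at 7.03, 8.21 and 7.61 CPM against 11.2, 11.3 and 14.4 CPM (log2 fold change 0.70 ± 0.15, edgeR adjusted p = 0.105).

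Chromatin genes were read in 2 lists, beside 11.0% of all genes higher and 10.0% lower at an unadjusted p under 0.05 and 9.17% called higher by DESeq2. Of 50 genes for methylation of H3K4 and H3K36 and for histone acetylation and its readers, 28 were higher and 2 lower at an unadjusted p under 0.05, and DESeq2 called 18 higher and 2 lower. *Ep300*, a histone acetyltransferase, was at 35.5, 48.04 and 42.7 CPM in control and 58.6, 55.7 and 62.8 CPM in *thia* pools (log2 fold change 0.49 ± 0.12, edgeR adjusted p = 0.109). *Setd1b*, an H3K4 methyltransferase, was at 16.7, 21.7 and 23.7 CPM in control and 28.5, 31.1 and 35.5 CPM in *thia* pools (log2 fold change 0.61 ± 0.15, edgeR adjusted p = 0.1097). The lower ones were *Kat8*, the acetyltransferase of H4K16, at 37.96, 32.5 and 34.6 CPM against 27.4, 27.8 and 25.3 CPM (log2 fold change -0.38 ± 0.09, edgeR adjusted p = 0.107), and *Dpy30*, a small subunit of H3K4 methyltransferases, with a log2 fold change of -0.36 ± 0.10. These are long genes, with a median exon length of 10746 bases. Their median log2 fold change was 0.29 and 0.15 after removal of the length trend. Of 55 genes for repressive chromatin and DNA methylation, 6 were higher and 4 lower, near the share over all genes. The list includes *Kdm6b*, a demethylase of H3K27, at 19.6, 29.8 and 27.5 CPM in control and 39.5, 36.4 and 59.997 CPM in *thia* pools (log2 fold change 0.82 ± 0.23, edgeR adjusted p = 0.126), and *Tet3*, which oxidizes 5-methylcytosine, at 22.2, 26.4 and 28.1 CPM against 33.7, 31.2 and 46.8 CPM (log2 fold change 0.54 ± 0.17, edgeR adjusted p = 0.147).

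Lysosomal genes were higher, with 20 of 52 higher and 2 lower at an unadjusted p under 0.05 and 14 and 1 called by DESeq2. The shares of all genes were 11.0% and 10.0% at that threshold and 9.17% and 5.70% with DESeq2. The protease *Ctsh* was at 46.8, 43.9 and 41.1 CPM in control and 58.2, 60.4 and 62.3 CPM in *thia* pools (log2 fold change 0.46 ± 0.08, edgeR adjusted p = 0.104). *Npc1*, which exports cholesterol from lysosomes, was at 30.1, 32.1 and 31.2 CPM in control and 39.8, 39.9 and 40.4 CPM in *thia* pools (log2 fold change 0.36 ± 0.07, edgeR adjusted p = 0.105). The protease *Ctsc* went the other way, at 51.8, 45.5 and 49.7 CPM in control and 39.5, 33.2 and 34.1 CPM in *thia* pools (log2 fold change -0.46 ± 0.09, edgeR adjusted p = 0.105). In none of the 3 did the groups overlap, and *thia* replicate 2 lay with the other *thia* pools.

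Of 39 interferon-stimulated genes tested, 22 were higher in every *thia* pool than in every control pool, many at low levels. The summed level of the list was 810, 812 and 842 in control and 857, 1045 and 982 CPM in *thia* pools, with *thia* replicate 1 close to control replicate 3. Many antiviral genes carry an interferon-stimulated response element in their promoters. The element was searched for in RefSeq promoter windows (GRCm38.p6, the assembly of mm10) of 250 bases before to 50 bases after a gene's start, as TTTCNNTTTC on either strand. It was found in 16 of the 32 listed and tested genes with a window (50%) and in 501 of the 13659 tested genes with a window (3.67%). As the list was made of interferon-stimulated genes, this share describes the list and is no result of these libraries. Shown here are the sites of 4 members that were higher at an unadjusted p under 0.05, 5′ to 3′ on the gene's strand, with matches to the motif in either orientation in capitals.
Ifit1, chr19:34640770-34640828, plus strand: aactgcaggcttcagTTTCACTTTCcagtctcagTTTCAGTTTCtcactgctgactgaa
Isg15, chr4:156200860-156200911, minus strand: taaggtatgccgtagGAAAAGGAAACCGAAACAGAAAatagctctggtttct
Bst2, chr8:71537572-71537617, minus strand: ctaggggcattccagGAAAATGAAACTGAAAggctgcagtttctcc
Gbp3, chr3:142559984-142560029, plus strand: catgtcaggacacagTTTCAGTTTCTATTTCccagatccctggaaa

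The first match began 104 bases before the start in *Ifit1*, 78 in *Isg15*, 130 in *Bst2* and 45 in *Gbp3*. Matches in *Isg15*, *Bst2* and *Gbp3* overlap each other. Of the 39 genes of the list that were tested, 19 were higher and 0 lower at an unadjusted p under 0.05, beside 11.0% and 10.0% of all genes. The groups did not overlap upwards in 22 and downwards in 0, beside 13.2% and 14.3%, and DESeq2 called 15 higher, beside 9.17%. The motif was in 8 of the 14 higher ones with a window (57.1%) and in 8 of the other 18 (44.4%). *Oasl2*, an antiviral oligoadenylate synthetase-like protein, was at 7.81, 8.74 and 7.64 CPM in control and 12.9, 15.9 and 13.8 CPM in *thia* pools (log2 fold change 0.82 ± 0.13, edgeR adjusted p = 0.101). *Bst2* (tetherin), which holds virus particles at the cell surface, was at 49.8, 66.9 and 58.1 CPM in control and 84.9, 80.2 and 103 CPM in *thia* pools (log2 fold change 0.62 ± 0.14, edgeR adjusted p = 0.105). *Irf9* itself was at 14.6, 16.3 and 15.4 CPM in control and 20.8, 32.2 and 24.4 CPM in *thia* pools (log2 fold change 0.74 ± 0.16, edgeR adjusted p = 0.105). Every *thia* pool lay above every control pool in these genes.

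Other members had the same order of groups. *Isg15*, a ubiquitin-like modifier, was at 3.22, 2.31 and 2.12 CPM in control and 3.79, 6.34 and 3.88 CPM in *thia* pools (log2 fold change 0.87 ± 0.28, edgeR adjusted p = 0.151), *Gbp3*, a guanylate-binding protein, at 2.15, 2.16 and 1.31 CPM against 2.88, 4.26 and 2.64 CPM (log2 fold change 0.80 ± 0.28, edgeR adjusted p = 0.176), and *Ifit1*, which binds viral RNA, at 0.349, 0.452 and 0.252 CPM against 0.741, 0.8904 and 0.735 CPM (log2 fold change 1.16 ± 0.29, edgeR adjusted p = 0.115). The RNA sensor *Ddx58* (RIG-I) was at 12.5, 10.9 and 11.02 CPM against 15.98, 16.4 and 15.7 CPM (log2 fold change 0.48 ± 0.10, edgeR adjusted p = 0.105) and its ligase *Trim25* at 52.7, 58.03 and 57.8 CPM against 68.4, 71.8 and 70.7 CPM (log2 fold change 0.32 ± 0.07, edgeR adjusted p = 0.105). *Thia* replicate 2 was the highest of all 6 pools in 24 of the 39 genes. *Oas1a*, another family member, was at 5.02, 3.82 and 3.605 CPM against 4.07, 3.32 and 3.45 CPM (log2 fold change -0.20 ± 0.19, edgeR adjusted p = 0.599), and *Mx1* was not tested, at 0.174 to 0.328 CPM. Without *thia* replicate 2 edgeR called 5 of the 39 higher and 0 lower (4.23% of all genes higher), and without control replicate 3 as well 0 (0.649% of all genes higher). The log2 fold change of *Oasl2* was 0.73 without *thia* replicate 2 (edgeR adjusted p = 0.0683). Macrophage genes, which immune cells would bring in, had a summed level of 339.6, 302 and 493 in control and 305, 526 and 374 CPM in *thia* pools, and their part in the result was not tested.

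Class I genes of the major histocompatibility complex on chromosome 17 differed in both directions. *H2-T22*, a nonclassical class I gene (chromosome 17 from 36037128 to 36042747), was at 1.86, 7.38 and 2.17 CPM in control and 20.4, 29.98 and 25.02 CPM in *thia* pools (log2 fold change 2.72 ± 0.51, edgeR adjusted p = 0.105). *H2-T23* (chromosome 17 from 36029773 to 36032855) was at 0.494, 1.98 and 0.555 CPM in control and 3.71, 21.1 and 5.52 CPM in *thia* pools (log2 fold change 3.30 ± 0.82, edgeR adjusted p = 0.114). *H2-T10* (chromosome 17 from 36115876 to 36121465) was at 9.12, 6.55 and 9.35 CPM in control and 4.45, 2.16 and 2.87 CPM in *thia* pools (log2 fold change -1.40 ± 0.29, edgeR adjusted p = 0.105). Control replicate 2 was the highest control pool of the first 2, and *H2-T23* was at a log2 fold change of 2.18 without *thia* replicate 2 (edgeR adjusted p = 0.0889). The classical *H2-K1* was at 11.96, 8.71 and 13.4 CPM against 22.02, 17.7 and 21.4 CPM (log2 fold change 0.84 ± 0.17, edgeR adjusted p = 0.105), *H2-D1* at 39.6, 19.7 and 34.2 CPM against 23.2, 33.97 and 32.1 CPM (log2 fold change -0.07 ± 0.26, edgeR adjusted p = 0.909) and *B2m*, the shared light chain, at 87.5, 88.2 and 98.9 CPM against 95.1, 120.1 and 105 CPM (log2 fold change 0.22 ± 0.10, edgeR adjusted p = 0.267). Many *H2* genes are similar in sequence and vary between haplotypes. Reads of outbred mice mapped to the reference could therefore be split between copies, and the values of single *H2* genes are uncertain. How many haplotypes a pool held was not tested.

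Several groups had few members that differed, or members in both directions. At an unadjusted p under 0.05, 11.0% of all genes were higher and 10.0% lower. Glycolysis had 1 of 24 genes higher and 0 lower at that threshold. The citric acid cycle had 2 and 5 of 31, and the groups did not overlap downwards in 10, beside 14.3% of all genes. Within the citric acid cycle list, the biotin enzyme *Pcx* (pyruvate carboxylase) was at 52.9, 59.6 and 70.9 CPM in control and 81.5, 106 and 88.5 CPM in *thia* pools (log2 fold change 0.59 ± 0.14, edgeR adjusted p = 0.107) and *Suclg1*, of succinyl-CoA ligase, at 144, 149 and 151 CPM in control and 119, 109.7 and 111 CPM in *thia* pools (log2 fold change -0.39 ± 0.07, edgeR adjusted p = 0.105). Of 14 subunits of nicotinic acetylcholine receptors, the target of the insecticide, 2 were higher and 0 lower, and DESeq2 called 1 higher. *Chrnb2*, a beta subunit, was at 0.581, 0.954 and 0.681 CPM in control and 1.65, 1.59 and 0.976 CPM in *thia* pools (log2 fold change 0.91 ± 0.31, edgeR adjusted p = 0.163), and *Chrna4*, an alpha subunit, at 6.302, 8.71 and 7.16 CPM against 10.7, 6.72 and 8.27 CPM (log2 fold change 0.21 ± 0.21, edgeR adjusted p = 0.599). Hox genes had 0 of 33 higher and 1 lower, and imprinted genes 5 and 3 of 46. Xenobiotic metabolism had 8 higher and 1 lower of 52. *Abcb1a*, a drug efflux pump of vessel walls, was at 1.02, 1.26 and 0.706 CPM in control and 2.52, 2.104 and 2.29 CPM in *thia* pools (log2 fold change 1.21 ± 0.25, edgeR adjusted p = 0.105).

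The remaining function lists had members in both directions or few at all, except 2 lists given last. Beside their counts, 11.0% of all genes were higher and 10.0% lower. Higher and lower at an unadjusted p under 0.05 were 3 and 0 of 30 immediate early genes, 4 and 3 of 27 hypoxia genes, 5 and 7 of 43 oxidative stress genes, 3 and 4 of 23 retinoic acid genes and 3 and 2 of 31 genes of fatty acid oxidation. In the 2 lists that hold liver products, they were 9 and 3 of 38 complement and coagulation genes and 7 and 1 of 34 genes of lipoproteins and lipid transport. Of 13 ovary and granulosa cell genes 1 was higher and 0 lower. *Gstm5*, a glutathione transferase and the oxidative stress gene with the smallest p-value, was at 149, 138 and 141 CPM in control and 110.1, 119 and 112 CPM in *thia* pools (log2 fold change -0.33 ± 0.07, edgeR adjusted p = 0.105).

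Single members of other lists differed. In the list of the integrated stress response, 5 of 33 were higher and 3 lower. Its amino acid transporters *Slc7a5* and *Slc7a1* were at 123, 129 and 114 CPM in control and 191, 180.4 and 250.4 CPM in *thia* pools (log2 fold change 0.77 ± 0.13, edgeR adjusted p = 0.105) and at 34.2, 36.9 and 39.6 CPM against 53.6, 53.8 and 62.5 CPM (log2 fold change 0.62 ± 0.09, edgeR adjusted p = 0.101). *Phgdh*, the first enzyme of serine synthesis, was at 418, 298 and 316 CPM in control and 233, 197 and 182 CPM in *thia* pools (log2 fold change -0.75 ± 0.15, edgeR adjusted p = 0.105). Hexokinase 2 (*Hk2*) was at 23.9, 24.7 and 26.5 CPM against 36.1, 29.6 and 38.3 CPM (log2 fold change 0.47 ± 0.11, edgeR adjusted p = 0.109) and *Cpt1a*, which admits fatty acids to mitochondria, at 55.03, 60.6 and 54.3 CPM against 81.1, 66.05 and 87.7 CPM (log2 fold change 0.47 ± 0.11, edgeR adjusted p = 0.1097). The potassium channel list had 12 of 59 higher and 1 lower at an unadjusted p under 0.05, beside 11.0% and 10.0% of all genes, and the groups did not overlap upwards in 15, beside 13.2%. In that list *Kcnma1*, a calcium-activated channel of smooth muscle, was at 7.26, 9.64 and 9.18 CPM in control and 17.6, 14.2 and 18.98 CPM in *thia* pools (log2 fold change 0.96 ± 0.16, edgeR adjusted p = 0.104). Nuclear receptors had 6 of 45 higher and 1 lower, with the estrogen receptor *Esr1* at 18.96, 19.3 and 21.9 CPM in control and 26.5, 28.6 and 35.5 CPM in *thia* pools (log2 fold change 0.59 ± 0.13, edgeR adjusted p = 0.105).

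**Figure D5:**
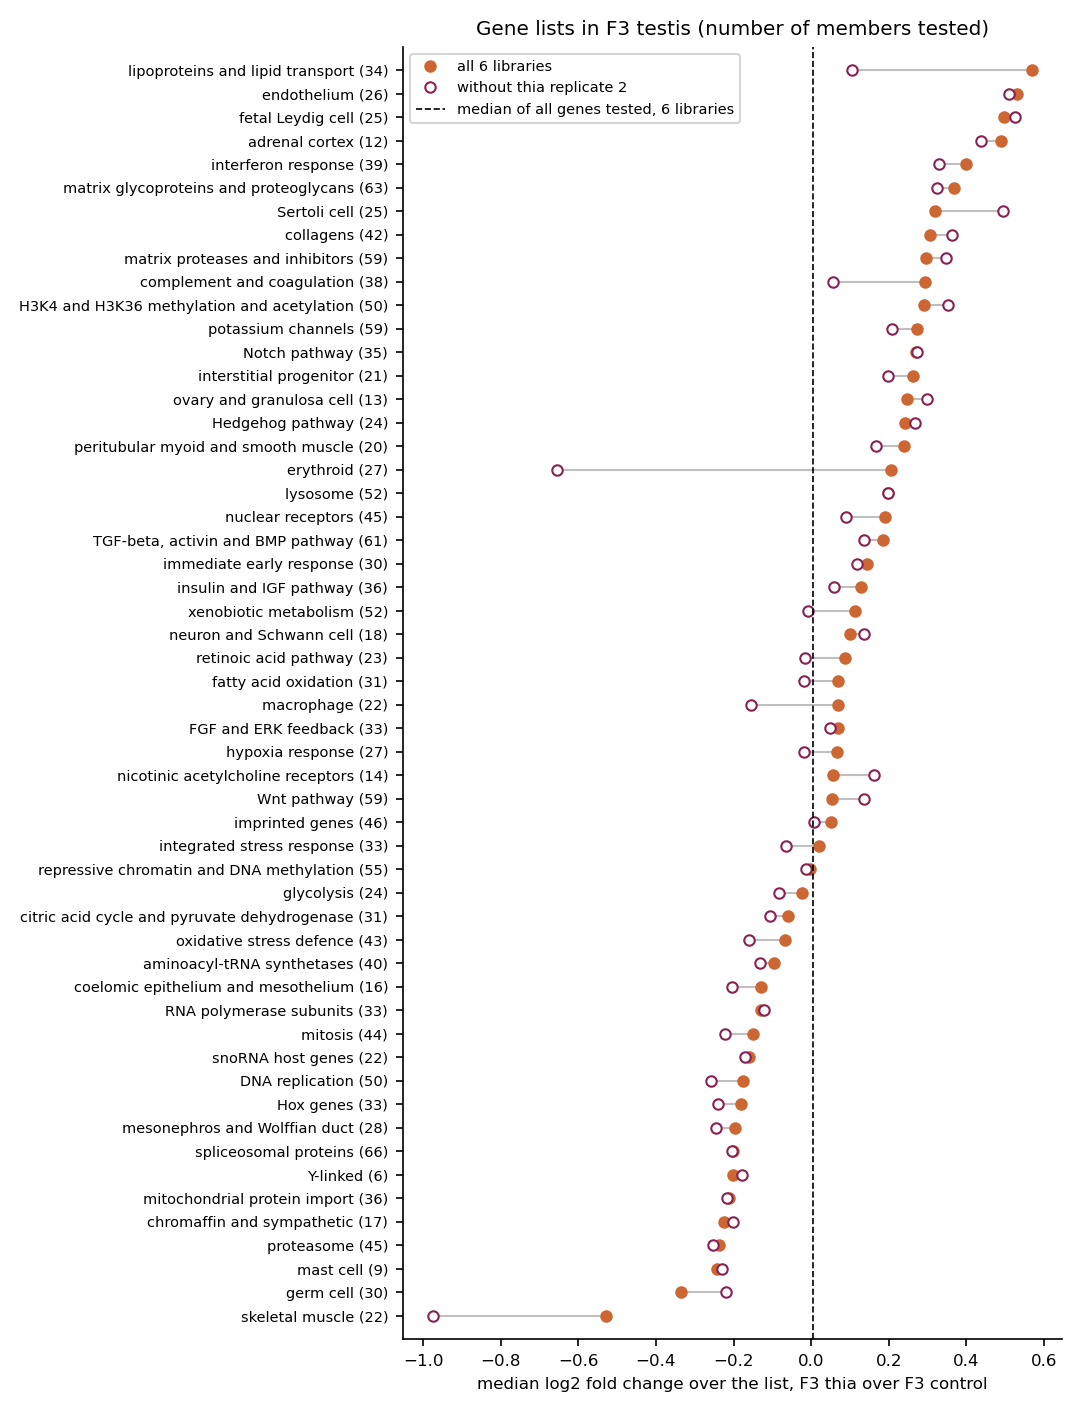
Median log2 fold change, *thia* over control, of the marker and function lists, X inactivation left out, with all 6 F3 libraries (filled) and without *thia* replicate 2 (open), with the number of members tested in brackets and the median of all genes tested as a dashed line. Endothelial, Leydig and matrix lists lie to the right and proteasome, spliceosome and replication lists to the left in both, while erythroid genes move from 0.21 to -0.66.

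The genes raised in *thia* replicate 2 included products of hepatocytes. Of 44 liver products, a list written after these values were seen, 42 were highest in that pool, 34 of them by over 1 log2, and their summed level was 823, 637 and 2759 in control and 1532, 8026 and 1062 CPM in *thia* pools. *Alb*, serum albumin, was at 159, 122 and 658 CPM in control and 439, 2182 and 248 CPM in *thia* pools (log2 fold change 1.61 ± 0.93, edgeR adjusted p = 0.368). *Cps1*, the first enzyme of the urea cycle, was at 5.69, 4.85 and 16.1 CPM in control and 13.6, 96.2 and 6.38 CPM in *thia* pools (log2 fold change 2.11 ± 1.00, edgeR adjusted p = 0.276). *Apob*, the protein of secreted lipoproteins, was at 5.95, 6.58 and 24.7 CPM against 16.7, 102 and 9.18 CPM, *Itih4*, a plasma protease inhibitor, at 2.004, 2.21 and 7.31 CPM against 5.399, 28.2 and 3.55 CPM, and *H2-Q10*, a secreted class I molecule of liver, at 3.95, 2.81 and 9.504 CPM against 4.02, 34.3 and 3.69 CPM. Control replicate 3 was the second highest pool in all 5 genes. Leaving *thia* replicate 2 out turned the median of the list from 1.23 to -0.27.

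Genes of red cell precursors had the same order. The fetal liver is also where red cells form at this stage. Of 20 erythroid genes other than globins, 20 were highest in *thia* replicate 2, and their summed level was 3543, 3374 and 4413 in control and 2407, 6695 and 2426 CPM in *thia* pools. *Klf1*, the erythroid transcription factor, was at 14.7, 11.1 and 35.4 CPM in control and 10.5, 72.8 and 10.5 CPM in *thia* pools (log2 fold change 0.61 ± 0.82, edgeR adjusted p = 0.708). *Tfrc*, the transferrin receptor, was at 85.97, 77.02 and 136 CPM against 106, 324 and 95.9 CPM. *Thia* replicates 1 and 3 lay below all controls in 14 of the 20 genes, beside 21.4% of all genes. Without *thia* replicate 2 edgeR called 0 higher and 7 lower, beside 4.23% and 2.59% of all genes. Of 22 macrophage genes 14 were highest in *thia* replicate 2.

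The genes lowered in *thia* replicate 2 included germ cell genes. Of the 30 germ cell genes 23 were lowest in that pool and 0 were highest. *Dppa3*, a maternal factor that protects methylation, was at 37.3, 27.6 and 16.5 CPM in control and 16.3, 3.804 and 11.9 CPM in *thia* pools (log2 fold change -1.34 ± 0.50, edgeR adjusted p = 0.191). *Khdc1a* was at 2.85, 4.29 and 3.71 CPM against 3.47, 0.378 and 1.84 CPM, *Padi6*, an enzyme of oocytes and germ cells, at 5.402, 4.47 and 3.81 CPM against 3.94, 0.917 and 2.64 CPM and *Dppa4*, a nuclear factor of pluripotent cells, at 165, 134 and 99.5 CPM against 119.8, 40.4 and 62.2 CPM. *Stra8*, a gene of meiotic entry that retinoic acid induces, went the other way, at 2.29, 1.48 and 1.06 CPM in control and 1.69, 5.56 and 1.41 CPM in *thia* pools. Outside the germ line, the serotonin receptor *Htr7* was at 2.96, 3.69 and 1.97 CPM against 2.05, 0.567 and 2.404 CPM and the collagen *Col6a5* at 23.4, 30.2 and 18.9 CPM against 25.6, 5.83 and 17.1 CPM. Sertoli genes were lower in this pool than in *thia* replicates 1 and 3 with a median log2 difference of -0.70 over 25 genes, Leydig genes with -0.41 over 25 and germ cell genes with -0.69 over 30.

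How often *thia* replicate 2 lay with the other *thia* pools varied from list to list. Where *thia* replicates 1 and 3 lay above all control pools, *thia* replicate 2 did so too in 2440 of 3722 genes (65.6%), and where they lay below, in 2651 of 3962 (66.9%). This was so for 16 of 17 such genes in endothelium, 8 of 8 in interstitial progenitors, 26 of 27 among matrix glycoproteins, 22 of 23 in the interferon list, 29 of 34 in the proteasome list and 31 of 39 in the spliceosome list. It was so for 11 of 16 Leydig genes, 22 of 31 replication genes and 12 of 24 mitosis genes. In the Sertoli list it was so for 1 of 15 genes, and among the erythroid genes other than globins for 0 of the 14 lower ones.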

How the data were processed

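RNA from 12 pools of E15.5 testes was sequenced by the study as strand-specific paired-end libraries, and the 6 F3 libraries were analysed here. The authors mapped reads to mm10 with HISAT2 2.1.0 and assigned them to refGene genes with featureCounts, as the paper's methods and the submitters' processing notes say. Raw, unnormalized counts were deposited for each of 35976 symbols, and whether reads or pairs were counted is not given in the sources used here. Symbols were matched to GENCODE M21, 26772 directly and 514 through RefSeq synonyms.

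Counts were filtered with filterByExpr (minimum count 10), scaled by TMM and tested with the quasi-likelihood test of edgeR 4.0.16 in R 4.3.3, with Benjamini-Hochberg adjustment at an FDR of 0.1, the authors' threshold. CPM carry the same scaling, and log2 CPM a prior count of 2. Standard errors were derived from that test. The pipeline was tested on simulated data. DESeq2 1.42.0 and the other alternatives are in the closing section. Promoter sequences are from RefSeq (GRCm38.p6).

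The comparison and the 55 gene lists, 18 of markers and 37 of functions, were chosen with earlier results of these data known, and 5 lists were added after the values were seen. Lists are described by counts and medians, with no test. Named were the 8 largest differences each way among genes with a mean of at least 2 CPM, an unadjusted p under 0.05 and groups apart, the 8 smallest p-values, at most 3 genes per list by p (mean at least 1 CPM), the 8 genes farthest above and below the other pools in *thia* replicate 2, and defining markers. Genes that the study names were left out of this rule. The text also gives other list members, chosen after their values were seen.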

Additional observations from a re-analysis of the deposited data

How the results depend on the processing

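The number of genes that passed an FDR of 0.1 depended on the test and its settings. Against 0 with the main test (smallest adjusted p 0.101), 2262 passed with DESeq2, 81 with bias-adjusted deviances, 521 with a robust dispersion, 520 with upper quartile scaling, 569 with no filter, 333 with at least 10 counts in every library, 1936 with all 12 libraries in one fit and 16 after removal of the trend with GC content. With DESeq2 size factors in edgeR, after removal of the length trend and at an FDR of 0.05 there were 0, and at an FDR of 0.15 there were 1826. Leaving out 1 pool at a time gave 0 to 1294, with 1294 without *thia* replicate 2, 1 without *thia* replicate 1, 2 without control replicate 2 and 0 otherwise. Without *thia* replicate 2, DESeq2 called 2808, and without control replicate 3 as well edgeR called 207, a lower count with 2 pools a group. The cause of these shifts was not tested. With the replicate number as a block, 0 genes passed. Deviations from the group means of same-numbered pools correlated by 0.229, -0.423 and -0.271 over genes, and the labels give no pairing, so the numbers were not taken to pair pools.

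Of the list medians under alternatives, 154 moved by less than 1 SD of the pools and 26 by more, with each list counted under each alternative. Without *thia* replicate 2 the medians were -0.66 for erythroid genes and for those other than globins, -0.27 for liver products, 0.056 for complement and coagulation, 0.10 for *H2* genes, 0.17 for myoid genes, 0.14 for Wnt and 0.089 for nuclear receptors. They were -0.11 for the citric acid cycle, -0.018 for fatty acid oxidation, -0.066 for the integrated stress response, -0.019 for hypoxia, -0.017 for retinoic acid and -0.0079 for xenobiotic metabolism. After removal of the length trend they were -0.18 for the spliceosome, -0.10 for the citric acid cycle, 0.11 for TGF-beta, 0.029 for FGF, 0.21 for potassium channels, -0.078 for repressive chromatin, 0.15 for H3K4 and acetylation and -0.084 for imprinted genes. Without *thia* replicate 2 and control replicate 3, those that moved by more were -0.038 for the stress response and 0.087 for nuclear receptors. Collagens at 0.45 and FGF at 0.12 did so too, against 0.36 and 0.049 without *thia* replicate 2 alone. Within 1 SD in that fit were -0.41 for erythroid genes and for those other than globins, 0.61 for liver products and 0.35 for *H2* genes. So were -0.061 for the citric acid cycle, 0.066 for fatty acid oxidation, -0.0012 for hypoxia and 0.073 for retinoic acid.

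Of the values of 162 named genes under alternatives, 2256 kept their direction and side of the threshold, 798 passed it in addition and 22 turned. With pools left out, log2 fold changes ranged from -1.59 to 0.19 for *Acta1*, -0.22 to 0.076 for *Dazl*, -0.32 to 0.14 for *H2-D1*, -0.49 to 2.04 for *H2-Q10*, -0.62 to 0.029 for *Hba-a1*, -0.42 to 0.070 for *Hbb-bs*, -0.033 to 0.24 for *Hbb-bt*, -0.093 to 0.0090 for *Hes1*, -0.96 to 1.27 for *Klf1* and -0.050 to 1.17 for *Stra8*. DESeq2 without *thia* replicate 2 gave -0.48 for *H2-Q10*, -0.0043 for *Hbb-bt*, -0.95 for *Klf1* and -0.040 for *Stra8*. Without both pools *Klf1* was at -0.30 and *Stra8* at -0.28, after removal of the length trend *Hbb-bs* was at 0.015 and *Hes1* at 0.0035, and after removal of the GC trend *Dazl* was at 0.046. Few counts lie behind genes under about 1 CPM, which limits their precision.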

Other observations

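Skeletal muscle genes varied between pools within both groups, and most were lower in *thia* replicates 1 and 3. Their summed level over 22 genes was 244, 179.6 and 459 in control and 164, 313 and 173 CPM in *thia* pools, with control replicate 3 the highest pool and *thia* replicate 2 the next. *Acta1*, skeletal muscle actin, was at 33.7, 17.8 and 83.2 CPM in control and 14.8, 58.4 and 15.1 CPM in *thia* pools (log2 fold change -0.62 ± 0.70, edgeR adjusted p = 0.653). *Actc1*, cardiac actin, was at 20.7, 12.8 and 55.3 CPM against 9.17, 22.9 and 9.55 CPM. Unlike these, *Myh8*, the perinatal myosin heavy chain, was higher in every *thia* pool, at 5.26, 9.39 and 16.3 CPM in control and 17.2, 25.7 and 22.1 CPM in *thia* pools (log2 fold change 1.07 ± 0.37, edgeR adjusted p = 0.171), while *Tnni1*, slow troponin I, was lower in every one, at 27.9, 27.4 and 34.97 CPM against 21.4, 19.5 and 25.5 CPM (log2 fold change -0.44 ± 0.14, edgeR adjusted p = 0.1499). At an unadjusted p under 0.05, 3 of the 22 genes were higher and 4 lower with edgeR, beside 11.0% and 10.0% of all genes. *Thia* replicates 1 and 3 lay below all control pools in 14 of the 22 and above them in 3, beside 21.4% and 20.1% of all genes. The median log2 fold change of the list was -0.53, and -0.98 without *thia* replicate 2, where edgeR called 0. Without control replicate 3 as well it was -0.53.

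Genes of nerve and Schwann cells and of mast cells differed by member. *Syt1*, a synaptic calcium sensor, was at 7.23, 6.53 and 8.72 CPM in control and 11.7, 10.5 and 11.5 CPM in *thia* pools (log2 fold change 0.58 ± 0.14, edgeR adjusted p = 0.113), and *Stmn2*, a neuronal microtubule regulator, at 12.8, 7.53 and 13.4 CPM in control and 5.801, 5.18 and 8.29 CPM in *thia* pools (log2 fold change -0.81 ± 0.27, edgeR adjusted p = 0.162). Of 18 genes of nerve and Schwann cells 4 were higher and 1 lower at an unadjusted p under 0.05, beside 11.0% and 10.0% of all genes. The mast cell protease *Tpsb2* was at 4.79, 2.89 and 6.58 CPM against 2.35, 2.91 and 2.16 CPM (log2 fold change -0.94 ± 0.31, edgeR adjusted p = 0.157), and 2 of 9 mast cell genes were lower and 0 higher.

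*Irx3*, a homeobox gene, had 10.9 CPM in *thia* replicate 3, while the rest lay between 0.728 and 2.54 CPM.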
